A study of Mus musculus with 6 samples.

Results

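Noncoding RNAs of 2 kinds were examined in cultured mouse cells labelled as female germline stem cells. They were the snoRNA host transcripts Gas5, Snhg1, Snhg3, Snhg8 and Snhg12, and the nuclear transcripts Malat1 and Neat1. These 7 genes were taken by symbol from a deposited table of 24672 genes, and all 7 were found in it. They were chosen with their levels and their difference between the groups already known, so those values are given as a description and without a test. The study compared 3 libraries labelled Dif-FGSC with 3 labelled FGSC, all from C57BL/6 cells of late passage in the same basal medium with fetal bovine serum. Dif-FGSC were cells moved onto a granulosa cell layer that could no longer divide, where they received 0.1 µmol/L retinoic acid, BMP4 at 10 ng/mL and bFGF. FGSC were kept on inactivated STO fibroblasts with LIF, EGF, bFGF and GDNF, so the feeder layer and the growth factors changed together with retinoic acid and their parts cannot be told apart.

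A snoRNA host gene is transcribed as a long precursor whose introns carry small nucleolar RNAs, which guide the methylation and pseudouridylation of ribosomal RNA and are freed once the introns are removed. The spliced exons of many hosts, Gas5 among them, meet ribosomes and are degraded by nonsense-mediated decay, and several hosts begin with the pyrimidine-rich start typical of ribosomal protein genes. Malat1 is a long unspliced RNA of nuclear speckles, the stores of splicing factors, and Neat1 is the RNA on which paraspeckles are built.

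Markers of the labelled cell type were at or near 0 in the table. An exact 0 there need not mean that a gene was silent, since Rps27, a ribosomal protein gene that every cell uses, was listed at 0 in all 6 libraries. Of 12 germ cell markers, 10 stayed below 0.1 FPKM in every library and 6 were listed at 0 in all, among them Dazl, Gfra1, Sycp3 and Dmc1. Their summed level was 0.52 to 0.966 FPKM in Dif-FGSC and 0.0317 to 0.0588 FPKM in FGSC, and most of the Dif-FGSC sum was Zbtb16, which was listed at 0 in FGSC. Of 12 fibroblast and granulosa markers, 10 also stayed below 0.1 FPKM, and the sum was 0.473 to 0.636 FPKM in Dif-FGSC and 0.773 to 1.07 FPKM in FGSC, with Foxl2 at 0 throughout. The 12 blood and mast cell markers summed to 1020 FPKM in each Dif-FGSC library and to 777 to 831 FPKM in FGSC. The highest in both groups were Cpa3, Gata2, Laptm5 and Kit. Of the 12, 2 stayed below 0.1 FPKM in every library, Fcer1a and Tpsb2, and Hdc did not exceed 0.149 FPKM. Of 9 tested 6 rose and 1 fell (limma adjusted p under 0.05), where of all tested genes 36.5% rose and 28.6% fell, 65.1% in all. They ranged from the protease Mcpt8 at 13.8 times to the surface protein Cd48 at 0.296 times its FGSC level. The part of this difference in the results below was not tested. In these bulk samples fewer cells of a type and less RNA per cell cannot be told apart. FPKM are fragments per kilobase of transcript, scaled to the number of mapped fragments, and the steps between low values implied 19.4 to 22.4 M fragments per Dif-FGSC library and 16.9 to 26.9 M per FGSC library.

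The start regions of the hosts are shown because the host transcripts did not all differ in the same direction, and their starts can be set beside one another. Each sequence runs from 40 bases before the annotated start to the thirtieth base of the transcript, from RefSeq on GRCm38.p6, and capitals mark a run of at least 5 C or T whose first base lies within 5 bases of that start. The files were made on mm9 and give no coordinates, so these belong to the sequences only. Gas5 is chr1:161035126-161035195 (plus strand, the later of its RefSeq starts), Snhg1 is chr19:8723447-8723516 (plus), Snhg3 is chr4:132353657-132353726 (minus), Snhg12 is chr4:132308638-132308707 (plus), Snhg8 is chr3:123508307-123508376 (minus) and Snhg7, another host that has such a run, is chr2:26640215-26640284 (minus).
Gas5: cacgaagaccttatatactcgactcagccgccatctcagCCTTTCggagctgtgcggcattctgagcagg
Snhg1: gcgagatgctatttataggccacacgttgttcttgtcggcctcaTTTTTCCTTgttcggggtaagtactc
Snhg3: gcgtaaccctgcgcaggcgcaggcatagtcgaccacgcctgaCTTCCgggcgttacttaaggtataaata
Snhg12: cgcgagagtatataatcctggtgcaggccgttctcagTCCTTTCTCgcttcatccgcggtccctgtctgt
Snhg8: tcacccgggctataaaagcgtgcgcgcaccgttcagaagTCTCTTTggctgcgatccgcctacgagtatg
Snhg7: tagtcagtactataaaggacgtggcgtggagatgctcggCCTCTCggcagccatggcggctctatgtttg

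Counting any annotated start of a gene, such a run was found in 5 of these 5 hosts, in 2 of 8 other tested hosts with a promoter window and in 25 of 60 tested ribosomal protein genes (41.7%), against 26.0% of 7368 tested genes. The letters TATAAA or TATATA, searched on the transcribed strand between bases -45 and -16, stood in 3 of the 5 hosts (Gas5, Snhg8 and Snhg12), in 2 of the 8 other hosts and in 6.67% of the ribosomal protein genes, against 1.47% of tested genes. Snhg8, which stood higher in Dif-FGSC, and Snhg12, which stood lower, both carried the run and the TATA letters, so neither feature separated the directions. The earlier RefSeq start of Gas5 had a longest run of 3 and no TATA letters, so Gas5 counts in both shares through its later start alone. These are matches of letters near an annotated start and say nothing of binding.

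Gas5, named for its build-up in growth-arrested cells, was listed at 0 in all 3 Dif-FGSC libraries, against 10.3, 14.9 and 16.3 FPKM in FGSC replicates 1 to 3. The groups did not overlap, and no fold is given because an exact 0 in such a table can be a failed estimate. The floor of 3 fragments over its longest annotated transcript would be 0.0524 to 0.0605 FPKM in Dif-FGSC libraries. Gas5 was 1 of 5 genes listed at 0 throughout Dif-FGSC with at least 5 FPKM in every FGSC library, and 12 genes showed the opposite pattern.

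The Gas5 entries differed from those of most members in their number of digits. Values of Snhg1, Snhg3, Snhg8, Snhg12 and Malat1 had at most 6 significant digits, whereas Gas5 had 8 and 9 in FGSC replicates 1 and 3 and Neat1 had 7 or 8 in 4 libraries. Of the tested genes, 38.8% held a value of more than 6 digits, which averaging of several entries would give, and the sources used here do not say how such entries were made. In the RefSeq annotation the zinc finger gene Zbtb37 overlaps Gas5, and it was not listed at 0. Zbtb37 stood at 0.499 to 0.567 FPKM in Dif-FGSC and 0.476 to 0.589 FPKM in FGSC. The strand setting of the counting is not given, so reads of Gas5 and of a gene that overlaps it cannot be told apart.

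**Figure D1:**
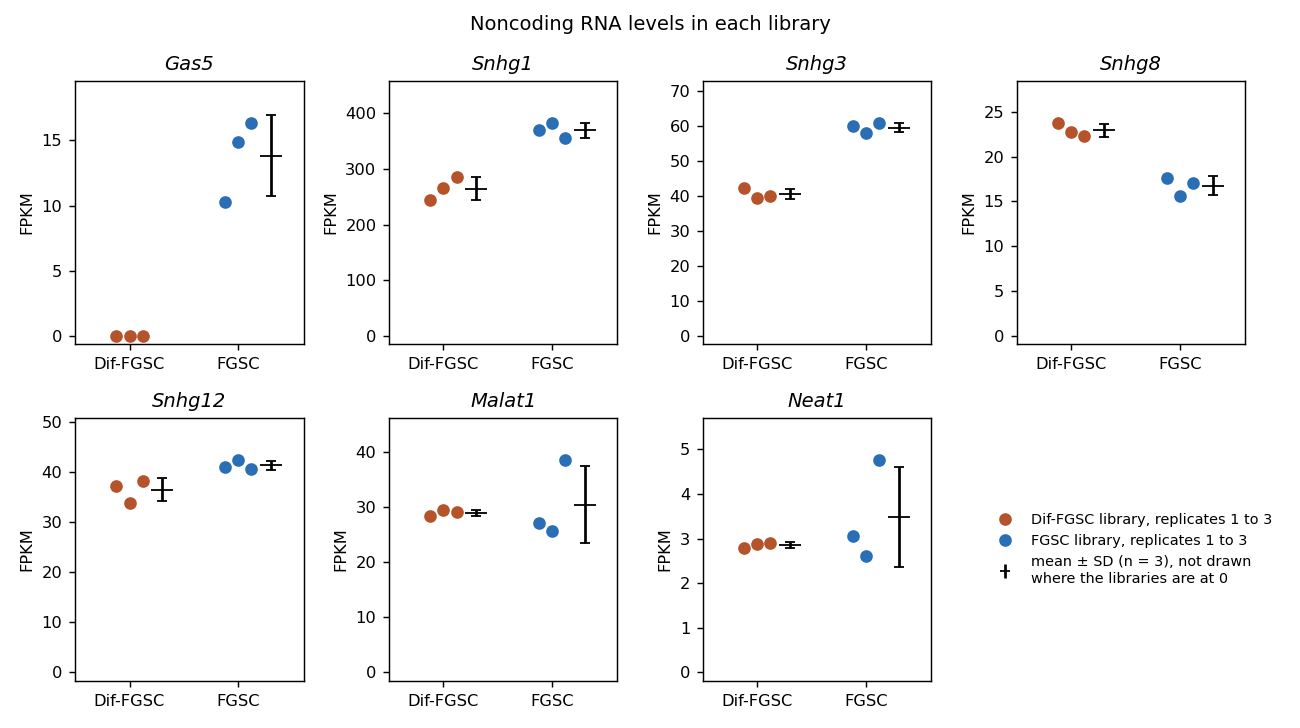
FPKM of each noncoding RNA (vertical axes, linear, each with its own range) in the 3 Dif-FGSC and 3 FGSC libraries; points are libraries in the order of replicates 1 to 3 and bars are mean ± SD (n = 3). Gas5 is listed at 0 in Dif-FGSC, Snhg1, Snhg3 and Snhg12 lie lower and Snhg8 higher in Dif-FGSC without overlap, and FGSC replicate 3 is the highest library for Malat1 and Neat1.

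Snhg1, whose introns carry several box C/D snoRNAs, was the most abundant of these RNAs, with a mean above that of 98.0% of tested genes in Dif-FGSC and 98.4% in FGSC. It stood at 244, 265 and 285 FPKM in Dif-FGSC, against 371, 382 and 356 FPKM in FGSC. Every Dif-FGSC library lay below every FGSC library. The log2 difference, here and below Dif-FGSC minus FGSC on log2(FPKM + 1), was -0.48 ± 0.056 (SE), a ratio of 0.716, and -0.29 after quantile normalization.

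Snhg3, the host of the U17 snoRNAs that act in cleavage of the ribosomal RNA precursor, stood at 42.1, 39.4 and 39.8 FPKM in Dif-FGSC, against 59.8, 57.9 and 60.6 FPKM in FGSC. Libraries within each group lay close together and the groups were well apart, with a log2 difference of -0.54 ± 0.036 (SE). Snhg12, which carries box H/ACA and box C/D snoRNAs, stood at 37.1, 33.8 and 38.2 FPKM in Dif-FGSC, against 40.9, 42.3 and 40.6 FPKM in FGSC. Here the groups did not overlap but the gap was small, with a log2 difference of -0.18 ± 0.047 (SE).

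Snhg8, the host of the H/ACA snoRNA Snora24, differed in the opposite direction. It stood at 23.7, 22.8 and 22.3 FPKM in Dif-FGSC, about 335 to 411 fragments, against 17.6, 15.6 and 17.1 FPKM in FGSC, about 224 to 367 fragments. All 3 Dif-FGSC libraries lay above the FGSC libraries, with a log2 difference of 0.43 ± 0.048 (SE) and a ratio of 1.37.

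Groups did not overlap for 5 of the 7 RNAs, 1 of them higher and 4 lower in Dif-FGSC, with Gas5 among the lower through its listed zeros; the groups of 70.7% of all tested genes did not overlap. Since the RNAs were chosen on this comparison, nothing is read from these counts. In FPKM, a scale per length, Snhg1 stood above Snhg3, Snhg12, Malat1 and Snhg8 in that order in both groups, and no library of one overlapped with the next in the same group. In FGSC the ranges of Snhg8 (15.6 to 17.6 FPKM) and Gas5 (10.3 to 16.3 FPKM) overlapped, so their order there is not settled, and Neat1 was below both.

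The snoRNAs inside the hosts were hardly measured. RefSeq places 23 snoRNAs within the 5 hosts, of which 7 were found in the table by symbol and 3 had a value above 0 in any library; the other 16 were not analysed here. Snora44, an H/ACA snoRNA within Snhg12, stood at 1.51, 4.35 and 2.15 FPKM in Dif-FGSC, against 0.313, 0.39 and 0.491 FPKM in FGSC. The spacing of these values corresponds to 4, 10 and 5 fragments in Dif-FGSC and 1 fragment in each FGSC library. Snord22, within Snhg1, stood at 1.76, 2.02 and 1.2 FPKM in Dif-FGSC and 0.871, 1.09 and 0.912 FPKM in FGSC, which corresponds to 5, 5 and 3 against 3, 3 and 2 fragments. Snora16a, also within Snhg12, was above 0 in 1 library of each group, at 0.325 FPKM in Dif-FGSC and 0.538 FPKM in FGSC, or 1 against 2 fragments. With so few fragments, in libraries of an mRNA kit, no direction is read from the snoRNAs, and no test is given. Snord47 of Gas5, Snora24 of Snhg8, Snora61 and Snord99 of Snhg12 and the mascRNA cut from Malat1 were listed at 0 in every library.

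Other snoRNA hosts were lower in Dif-FGSC as well. Of 16 other hosts on a list made with earlier results of these data known, 15 were in the table and 11 reached a mean of 1 FPKM, of which 10 fell, none rose and 1 was not called, where 28.6% of all tested genes fell and 36.5% rose. Of the 4670 tested genes with a mean of at least 10 FPKM, 34.2% fell and 36.0% rose. The median log2 difference of the 11 was -0.53, against 0.03 over all tested genes, and the 10 calls remained in number under median-ratio scaling and quantile normalization.

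Zfas1, a host transcribed from the start of Znfx1 in the opposite direction, fell to 63.9, 63.4 and 63.3 FPKM in Dif-FGSC, against 121, 129 and 135 FPKM in FGSC (ratio 0.495, limma adjusted p = 1.62e-06). Snhg20 stood at 15.4, 15.5 and 16.4 FPKM in Dif-FGSC, against 27.0, 25 and 31.2 FPKM in FGSC (limma adjusted p = 7.8e-05). In both genes the groups were far apart relative to their spread. Snhg7, whose start is shown above, stood at 5.54, 3.84 and 4.75 FPKM in Dif-FGSC and 9.66, 8.24 and 9.76 FPKM in FGSC (limma adjusted p = 0.000362). Snhg10, the lowest of these, stood at 0.753, 1.25 and 0.381 FPKM in Dif-FGSC and 2.01, 1.64 and 2.5 FPKM in FGSC (limma adjusted p = 0.00591). The remaining falls were those of Snhg4, Snhg5, Snhg6, Snhg15, Dancr and Epb41l4aos, with ratios of 0.647 to 0.821, and Snhg17 was not called (log2 difference 0.02 ± 0.056 SE). Zfas1 and Epb41l4aos are named for their antisense position, and without a stated strand setting their reads cannot be told from those of their partners.

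**Figure D2:**
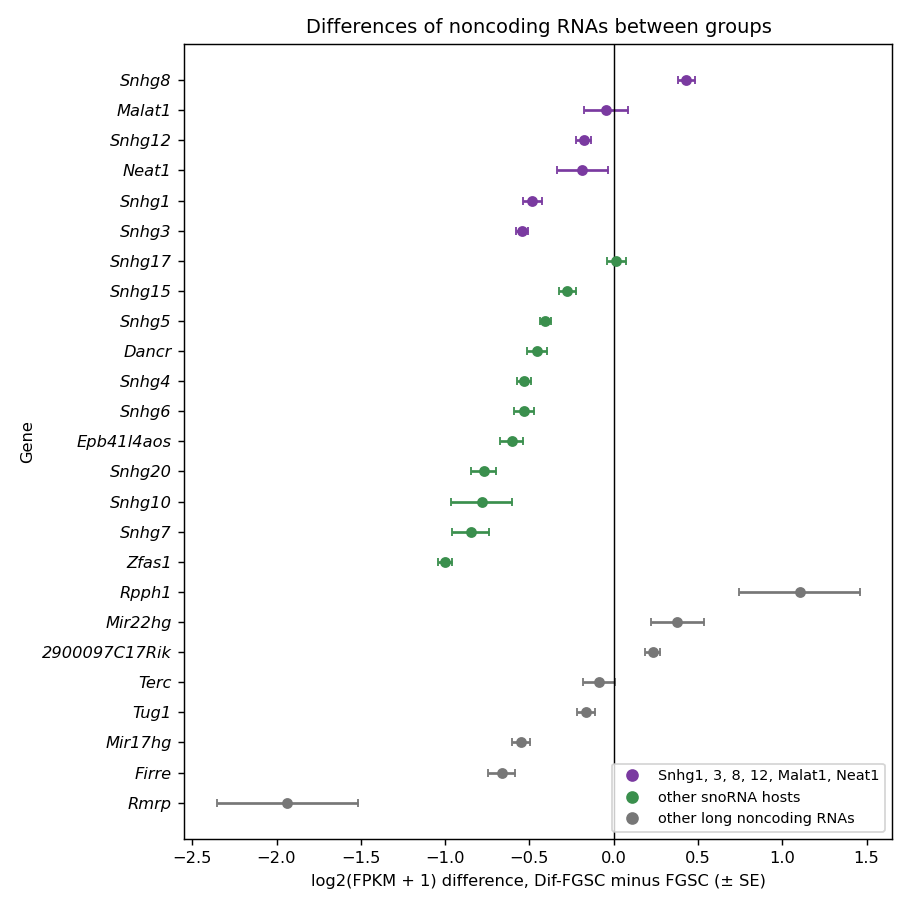
Difference in log2(FPKM + 1), Dif-FGSC minus FGSC, for the noncoding RNAs examined (top), other tested snoRNA hosts (middle) and other tested long noncoding RNAs (bottom); points are estimates and bars SE from the limma fit over 6 libraries. Of the other hosts, 10 of 11 lie left of 0, while Snhg8 lies to the right; Gas5 is omitted because it is listed at 0 in Dif-FGSC.

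Ribosomal protein genes leaned the same way as the other hosts. Of 79 tested genes with cytosolic ribosomal protein symbols 67 fell and 2 rose, where 36.5% of all tested genes rose and 28.6% fell, with a median log2 difference of -0.29, but after quantile normalization 39 fell and 8 rose. Rpl23, of the large subunit, stood at 466, 483 and 490 FPKM in Dif-FGSC, against 740, 758 and 756 FPKM in FGSC (limma adjusted p = 1.5e-06). The largest fall was that of Rpl17, at 608, 823 and 700 FPKM in Dif-FGSC and 1250, 1360 and 1130 FPKM in FGSC (limma adjusted p = 0.000401), and Rps6 stood at 0.679 times its FGSC level (limma adjusted p = 4.11e-05). Ribosomal protein genes have near-identical pseudogenes, among which the counting could have divided reads.

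**Figure D3:**
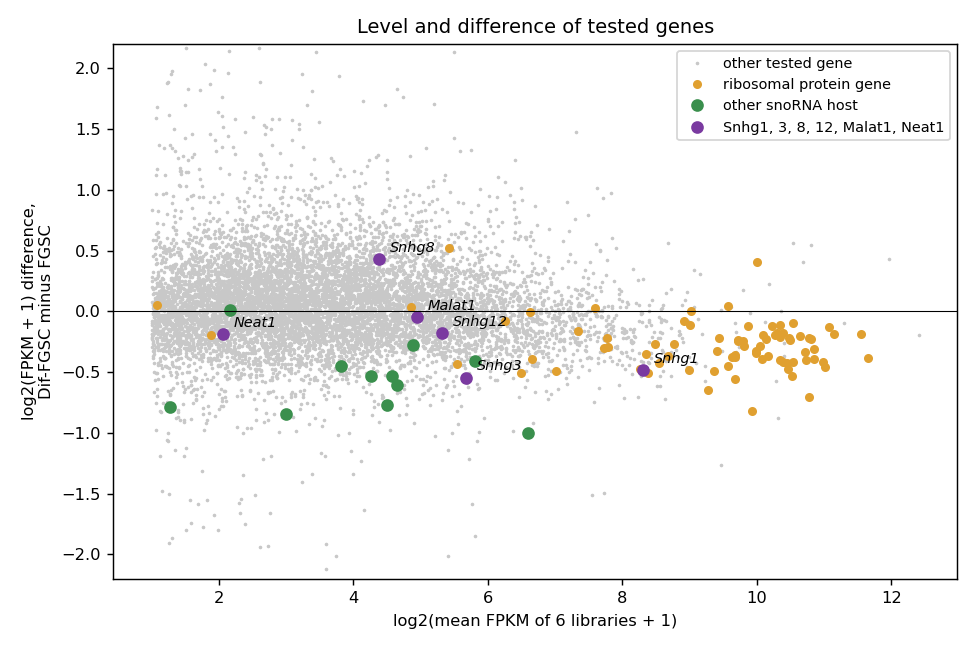
Mean level of each tested gene, as log2(mean FPKM + 1) over the 6 libraries (horizontal), and its difference in log2(FPKM + 1), Dif-FGSC minus FGSC (vertical). Each dot is a gene; 48 genes with a difference beyond 2.2 either way, Gas5 among them, are not shown. Snhg1 and Snhg3 lie among the lower part of the cloud with most ribosomal protein genes and other hosts, and Snhg8 lies above the line.

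The proteins that package snoRNAs were mixed. Of 20 tested proteins of snoRNA particles and their assembly 3 rose, 7 fell and 10 were not called, where 36.5% of all tested genes rose and 28.6% fell, with a median log2 difference of -0.08. The box C/D core protein Nop58 fell to 228, 230 and 239 FPKM in Dif-FGSC, against 317, 283 and 284 FPKM in FGSC (limma adjusted p = 0.000466). Its partner methyltransferase Fbl stood at 307, 312 and 303 FPKM in Dif-FGSC and 359, 368 and 368 FPKM in FGSC (limma adjusted p = 7.63e-05). The box C/D proteins Snu13 and Nop56 stood at 0.796 and 0.838 times their FGSC levels (limma adjusted p = 0.000637 and 0.00786). The box C/D core proteins named here thus all fell. The H/ACA core protein Nop10 stood at 0.799 times its FGSC level (limma adjusted p = 5.4e-05). Of the other H/ACA core proteins, Nhp2 was slightly higher, at 1.07 times its FGSC level (limma adjusted p = 0.0272), and Dkc1 and Gar1 were not called, so the H/ACA core had no common direction. The largest rise was that of the H/ACA assembly factor Naf1, at 30.5, 29.9 and 29.9 FPKM in Dif-FGSC and 22.7, 21.1 and 20.3 FPKM in FGSC (limma adjusted p = 5.91e-05).

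Nonsense-mediated decay factors included genes that rose and genes that fell. The share of falls was near that of all genes and the share of rises somewhat above it, in a list of only 21. Of 21 tested factors 10 rose, 6 fell and 5 were not called, where 36.5% of all tested genes rose and 28.6% fell, with a median log2 difference of 0.11. The helicase Upf1, which drives the pathway, rose to 22.4, 22.9 and 22.0 FPKM in Dif-FGSC, against 15.2, 14.0 and 14.9 FPKM in FGSC (limma adjusted p = 1.35e-05). Its bridge to the exon junction, Upf2, stood at 11.6, 11.3 and 11.9 FPKM in Dif-FGSC, against 18.0, 15.8 and 17.1 FPKM in FGSC (limma adjusted p = 7.99e-05). The helicase and its cofactor thus moved apart, with no overlap between groups in either. Smg9, a subunit of the kinase complex that phosphorylates Upf1, and Smg6, the endonuclease of the pathway, also rose, with log2 differences of 0.86 ± 0.077 and 0.47 ± 0.052 (SE; limma adjusted p = 5.07e-05 and 0.000156).

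Of 10 coding transcripts known as sensitive to this pathway 4 were higher, 4 lower and 2 not called, where 36.5% of all tested genes rose and 28.6% fell. The stress regulator Atf4 fell to 159, 157 and 157 FPKM in Dif-FGSC, against 232, 237 and 266 FPKM in FGSC (limma adjusted p = 2.7e-05), and Gadd45b fell to 0.573 times its FGSC level (limma adjusted p = 6.56e-05). The cell cycle inhibitor Cdkn1a rose to 45.5, 46.4 and 46.3 FPKM in Dif-FGSC, against 25.4, 23.9 and 28.1 FPKM in FGSC (limma adjusted p = 1.33e-05). The stress-induced factor Atf3 was also higher, at 2.53 times its FGSC level (limma adjusted p = 0.00081). The lower members include Ddit3, which was listed at 0 in all Dif-FGSC libraries and in FGSC replicate 1. Without FGSC replicate 2, FGSC replicate 3 or Dif-FGSC replicate 2, 2 members of this list were lower.

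Malat1 did not differ between the groups beyond its spread. It stood at 28.4, 29.4 and 29.1 FPKM in Dif-FGSC, about 3944 to 4443 fragments, against 27.1, 25.7 and 38.5 FPKM in FGSC, about 3872 to 5099 fragments. The Dif-FGSC values fell within the FGSC range, which 1 library widened: FGSC replicate 3 was at 1.46 times the mean of the other FGSC libraries. The log2 difference was -0.05 ± 0.13 (SE) and became 0.13 without that library. The coefficient of variation was 1.7% in Dif-FGSC and 23.1% in FGSC, where the medians over tested genes were 3.44% and 4.68%.

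The Malat1 end is shown because mature Malat1 carries no added poly(A) tail, and the libraries were made with an mRNA kit. It ends instead in an encoded A-rich tract that folds into a triple helix with U-rich stretches upstream, where the tRNA-like mascRNA is cut off. The stretch is positions 6582 to 6691 of the 6983-base GENCODE M21 transcript on chromosome 19, up to the annotated mascRNA, with the U-rich motifs and the A-rich tract in capitals.
Malat1: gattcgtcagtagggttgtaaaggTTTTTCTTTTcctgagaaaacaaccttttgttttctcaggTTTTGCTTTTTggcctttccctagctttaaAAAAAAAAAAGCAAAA

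Neat1 was the lowest of the RNAs with a value in every library. It stood at 2.78, 2.89 and 2.91 FPKM in Dif-FGSC, against 3.07, 2.62 and 4.76 FPKM in FGSC. The groups overlapped, and FGSC replicate 3 again stood apart, at 1.68 times the mean of the other FGSC libraries. The log2 difference was -0.19 ± 0.15 (SE) and 0.01 without that library. Values of Snhg1, Snhg3, Snhg8 and Snhg12 in FGSC replicate 3 were 0.946 to 1.03 times those means, and that of Gas5 was 1.29 times the mean of its other FGSC libraries.

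Of 25 tested paraspeckle proteins 5 rose, 15 fell and 5 were not called, where 36.5% of all tested genes rose and 28.6% fell, with a median log2 difference of -0.17. The core proteins moved apart: Nono stood at 104, 104 and 106 FPKM in Dif-FGSC and 118, 120 and 114 FPKM in FGSC (limma adjusted p = 0.00122), whereas Sfpq stood at 112, 114 and 110 FPKM in Dif-FGSC and 92.9, 89.4 and 83.8 FPKM in FGSC (limma adjusted p = 0.000216). Tardbp, an RNA-binding protein that regulates Neat1 isoform use, fell to 5.41, 5.46 and 5.42 FPKM in Dif-FGSC, against 8.37, 8.04 and 8.37 FPKM in FGSC (limma adjusted p = 1.47e-05). Hnrnph3, a splicing regulator, stood at 0.704 times its FGSC level (limma adjusted p = 0.000316). The largest fall was that of Rbmx, with a log2 difference of -0.64, and Smarca4, a chromatin remodeller ATPase, rose by 0.56 (limma adjusted p = 1.06e-05 and 9.34e-06).

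Of 29 tested proteins of nuclear speckles and other Malat1 partners 11 were higher, 10 lower and 8 not called, near the 36.5% and 28.6% of all tested genes, with a median log2 difference of 0.03. The speckle scaffold Srrm2 rose to 116, 112 and 113 FPKM in Dif-FGSC, against 73.5, 72.2 and 79.1 FPKM in FGSC (limma adjusted p = 1.15e-05). Prpf8, the core protein of the spliceosome, stood at 166, 166 and 162 FPKM in Dif-FGSC and 106, 111 and 112 FPKM in FGSC (limma adjusted p = 3.28e-06). The related kinases that release splicing factors from speckles went opposite ways. Clk4 stood at 5.93, 5.59 and 5.48 FPKM in Dif-FGSC and 2.63, 3.03 and 2.51 FPKM in FGSC, and Clk1 at 10.1, 10.6 and 11.1 FPKM in Dif-FGSC and 14.7, 14.2 and 16.7 FPKM in FGSC (limma adjusted p = 1.94e-05 and 0.000337). Mettl16, which binds the Malat1 triple helix in human cells, was not called (log2 difference 0.10, limma adjusted p = 0.0783).

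**Figure D4:**
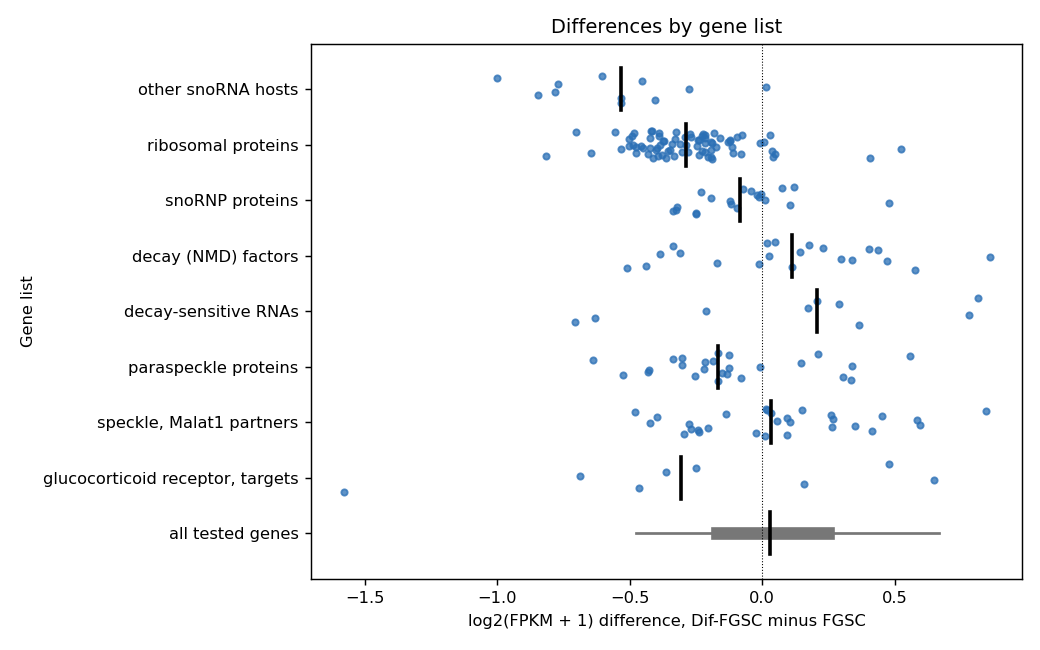
Difference in log2(FPKM + 1), Dif-FGSC minus FGSC, of each tested gene in 8 lists; blue points are genes and black bars medians, and genes listed at 0 throughout a group are left out. For all 9162 tested genes the thin line spans the 5th to 95th percentile (-0.48 to 0.67) and the thick line the middle 50% (-0.17 to 0.25). The other snoRNA hosts have a median of -0.53 and the ribosomal protein genes of -0.29.

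Gas5 is known in human cells as a decoy that binds the glucocorticoid receptor. The receptor gene Nr3c1 was listed at 19.8, 20.2 and 19.9 FPKM in Dif-FGSC and at 0 in all FGSC libraries, the reverse of Gas5, and this 0 too can be a failed estimate. Among 9 tested genes of the receptor and its targets 4 were higher, Nr3c1 included, and 4 lower, where 36.5% of all tested genes rose and 28.6% fell. With the test limited to genes above 0 in every library, 3 were higher and 5 lower. Tsc22d3, a target that dampens inflammation, fell to 1.47, 1.52 and 1.44 FPKM in Dif-FGSC, against 6.03, 6.47 and 6.67 FPKM in FGSC (limma adjusted p = 4.47e-07). Dusp1, a phosphatase also induced by other signals, stood at 4.31, 3.54 and 4.07 FPKM in Dif-FGSC and 2.0, 2.59 and 1.95 FPKM in FGSC (limma adjusted p = 0.000524). The transcription factor Klf9 was lower as well and the growth factor receptor inhibitor Errfi1 higher, at 0.489 and 1.5 times their FGSC levels (limma adjusted p = 0.000205 and 0.00106).

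Protein-coding neighbours of the RNAs did not move with them as a rule. Slc3a2, an amino acid transporter chain next to Snhg1, stood at 81.1, 82.4 and 79.4 FPKM in Dif-FGSC and 79.9, 82.6 and 84.6 FPKM in FGSC, and Wdr74 on its other side was likewise not called (limma adjusted p = 0.527 and 0.943). Beside Snhg3, Rcc1, the exchange factor of the nuclear GTPase Ran, stood at 57.1, 55.8 and 54.9 FPKM in Dif-FGSC and 52.7, 53.2 and 49.3 FPKM in FGSC (limma adjusted p = 0.0301), opposite to its neighbour. Phactr4, on the other side of Snhg3, was higher too (limma adjusted p = 0.000183). Trnau1ap, a selenocysteine tRNA cofactor beside Snhg12, was lower like it (log2 difference -0.19 ± 0.039 SE, limma adjusted p = 0.00327). Frmd8, a protein-coding gene that flanks Malat1 and Neat1, stood at 21.6, 20.7 and 21.2 FPKM in Dif-FGSC and 14.7, 15.2 and 14.3 FPKM in FGSC (limma adjusted p = 1.91e-05). The neighbours of Snhg8, Prss12 and Ndst3, and Rab42 beside Snhg12 were at or near 0.

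Likeness of profiles was described by the root-mean-square distance between centred log2(FPKM + 1) values over the 6 libraries. For the Snhg hosts this distance is dominated by the group difference. The genes with the most similar profiles were found for each RNA with a value in every library. They were Btbd2, R3hcc1 and Hspd1 for Snhg1 (distances 0.0362 to 0.0466), Pde4b, Cep72 and Lsm8 for Snhg3 (0.0297 to 0.031), Cbx6, Glce and Zscan25 for Snhg8 (0.0228 to 0.0265) and Aagab, Commd5 and Ankmy2 for Snhg12 (0.0171 to 0.0221). For Malat1 they were Scd1, Spp1 and Zfp36 (0.035 to 0.0589), and for Neat1 Plau, Mblac2 and Tubb2b (0.0445 to 0.0683). Each of the genes named for Malat1 and Neat1 was highest in FGSC replicate 3, as both RNAs were: Scd1, a fatty acid desaturase, stood at 3.61, 3.77 and 3.53 FPKM in Dif-FGSC and 3.43, 3.36 and 5.27 FPKM in FGSC, and Plau, a secreted protease, at 8.82, 8.72 and 8.39 FPKM in Dif-FGSC and 9.35, 8.55 and 13.3 FPKM in FGSC.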

How the data were processed

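The authors deposited 1 table of FPKM values by gene symbol, with 3 columns named con and 3 named dif. The prefix con was read as FGSC, and each direction rests on this. HISAT2 4.8.2, Cufflinks 2.2.1 and mm9 are named in the submitters' processing notes without their steps; for the annotation and the strand setting, the sources used here give nothing. Of 24674 rows, the higher of each of 2 duplicated symbols was kept, 24235 of 24672 symbols matched the reference names, and 10035 genes were at 0 throughout. limma 3.58.1 in R 4.3.3 (lmFit, eBayes with trend) was run on log2(FPKM + 1) for the 9162 genes with a mean of at least 1 FPKM, with Benjamini-Hochberg adjustment over all of them and a call at an adjusted p under 0.05. Differences on this scale understate changes of low genes. Nothing says that libraries of a group were separate cultures, so the spread that p-values measure may be technical only. Single genes compared 3 against 3 cannot reach an exact two-sided permutation p below 0.1.

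Depth came from low values of genes with 1 annotated transcript, of which 73.6% to 75.9% came within 0.1 of whole fragments. Fragment numbers use the longest GENCODE M21 transcript and cover counting error only. The fit was tested on simulated data. The RNAs and gene lists were chosen with earlier results of these data known. Named genes were all 7 RNAs, their neighbours, the 3 closest profiles of each, and up to 4 called members per list by size of difference, with any list member at 0 in 1 group and at least 5 FPKM in the other. Fbl, Nop56, Nhp2, Dkc1, Gar1, Rps27, Nono, Sfpq, Mettl16, Ddit3, Snhg17 and the marker genes were named after their values were seen. Alternatives changed the pseudocount to 0.1, the filter, the scaling or the libraries, or added a replicate block. Some genes that this rule names are not reported here.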

Additional observations from a re-analysis of the deposited data

How the results depend on the processing

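The 10 falls among other snoRNA hosts were 9 with a minimum mean of 5 FPKM, where fewer genes were tested, and 10 in every other alternative run, with none higher. Quantile normalization moved the log2 differences of Snhg1 to -0.29 and of Snhg8 to 0.35, and the cause was not tested; under it those of Snhg3 and Snhg12 were -0.57 and -0.22. Leaving out 1 library gave -0.54 to -0.43 for Snhg1, -0.57 to -0.53 for Snhg3, 0.39 to 0.47 for Snhg8, -0.21 to -0.13 for Snhg12, -0.16 to 0.13 for Malat1 and -0.33 to 0.01 for Neat1, where the positive values of Malat1 and Neat1 came without FGSC replicate 3. Neat1 has no value at a minimum mean of 5 FPKM. Of all tested genes 3343 were higher and 2622 lower; quantile normalization gave 2789 and 3185, and median-ratio scaling 3062 and 2961. Correlations of deviations from the group means were 0.13, 0.01 and 0.17 between libraries that share replicate numbers 1 to 3. Between libraries of unlike numbers they were -0.22 to 0.11. With 3 libraries per group these values cannot settle whether replicate numbers pair the samples. A replicate block gave 3241 higher and 2557 lower genes and left the log2 difference of Snhg1 at -0.48. Restricting the test to genes above 0 in every library, an alternative chosen after seeing the data, left 3326 higher and 2644 lower genes. Rises among snoRNA particle proteins numbered 1 rather than 3 with median-ratio scaling and without Dif-FGSC replicate 2.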

Other observations

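Of 8 other long noncoding RNAs tested 2 were higher, 4 lower and 2 not called, where 36.5% of all tested genes rose and 28.6% fell. Mir17hg, the host of a microRNA cluster that promotes proliferation, stood at 9.66, 8.45 and 9.22 FPKM in Dif-FGSC, against 14.0, 13.1 and 14.4 FPKM in FGSC (log2 difference -0.55, limma adjusted p = 9.89e-05). Firre, an X-linked nuclear RNA, stood at 1.15, 1.23 and 1.11 FPKM in Dif-FGSC, against 2.57, 2.03 and 2.72 FPKM in FGSC (limma adjusted p = 0.000251). Both fell without overlap between the groups. The RNA components of the related nucleases RNase MRP and RNase P were called in opposite directions. Rmrp stood at 0.965, 1.3 and 1.47 FPKM in Dif-FGSC, against 4.12, 17.3 and 5.64 FPKM in FGSC (limma adjusted p = 0.00454). Rpph1 stood at 5.17, 7.21 and 8.68 FPKM in Dif-FGSC, against 1.35, 5.76 and 2.12 FPKM in FGSC (limma adjusted p = 0.0291). For Rpph1 the groups overlapped, and in both genes FGSC replicate 2 was far above the other FGSC libraries. Several values were low, and the libraries were made with an mRNA kit, so no direction is read from either gene. The number of higher genes in this list was 1 without FGSC replicate 1, without Dif-FGSC replicate 2 or without Dif-FGSC replicate 3. Xist, the RNA that coats the inactive X chromosome, did not exceed 0.00235 FPKM in any library.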
